A study of Mus musculus with 4 samples.

Results

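The loss of Trib1 was examined in cells labelled MDP, the macrophage dendritic progenitor of mouse bone marrow, as the log2 value of the Trib1-/- MDP array minus that of the wild-type MDP array. Genes were taken from the whole table by whichever probe set had the highest mean and were used where the highest of the 4 values reached 3.29, the median of all values, here called the floor. This gave 11653 genes of the 18193 with a usable probe set. The wild-type MDP came from wild-type mice and the Trib1-/- MDP from mice with both Trib1 alleles disrupted. Both were of a mixed C57BL6J/129SV background, were sorted and left untreated and unstimulated, and their cell type is labelled only as macrophage dendritic cell. Granulocyte monocyte progenitors (GMP) of the same background and the same 2 genotypes were handled alike and are used here only for comparison. Each of the 4 groups is 1 Affymetrix array, so nothing below is checked by a replicate, no test or p-value is given, and genes are counted by size, with a log2 difference of at least 1 (2-fold). Where 4 values are listed together, GMP stands before MDP and wild type before Trib1-/-. In the sources used here, the number of animals behind an array, their age, the disrupted part of Trib1 and the sort gates are not given. The labels name no restriction of the Trib1 loss to a cell type.

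Trib1 encodes a pseudokinase of the Tribbles family, which brings the ubiquitin ligase COP1 to substrates such as C/EBP alpha and so sets how much of this myeloid transcription factor a cell keeps. It is best known in blood cells for driving acute myeloid leukaemia when overexpressed. MDP are marrow cells that can give rise to monocytes, macrophages and dendritic cells. Macrophages of the red pulp of the spleen, of the liver and of marrow islands clear old red cells: they bind them, break down haem, store the iron and export it through ferroportin, and the transcription factor SpiC drives part of that programme.

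The leading result was a group of macrophage genes that read lower on the Trib1-/- MDP array. Vcam1, Slc40a1, Mrc1, Cd163 and Lpl were among the largest differences of the whole table. As whole lists the contrast was smaller, with medians of the 5 macrophage lists from -0.42 to -0.21. With the floor used here, the medians of monocyte and conventional dendritic cell genes lay within 0.01 of 0. The single receptor gene Csf1r did so too. The medians of primary granule and plasmacytoid dendritic cell genes were -0.11 and -0.23. Those of B cell, erythroid and cytosolic ribosomal protein genes, at -0.29, -0.29 and -0.27, lay within the range of the macrophage lists. The genes that read higher were of mixed function and their differences were smaller in size, none reaching 4-fold. Most differences of 2-fold belonged to weakly expressed genes, where the values scatter most.

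Promoters are shown for the 4 lower macrophage genes with the largest differences among the 8 of the 12 with an entry in the RefSeq promoter table of build GRCm38.p6 (300 bases each, most of them before the start). They are printed so that the regulatory stretch of genes that were lower together can be read beside their values. Capitals mark GAGGAA or its reverse complement TTCCTC, the core of the sequence bound by PU.1 and SpiC, and each is written along the gene's own strand. C1qb lies at chr4:136886151-136886450 on the minus strand, Fcna at chr2:25627925-25628224 on the minus strand, Mrc1 at chr2:14229164-14229463 on the plus strand and Cd163 at chr6:124304401-124304700 on the plus strand.
C1qb: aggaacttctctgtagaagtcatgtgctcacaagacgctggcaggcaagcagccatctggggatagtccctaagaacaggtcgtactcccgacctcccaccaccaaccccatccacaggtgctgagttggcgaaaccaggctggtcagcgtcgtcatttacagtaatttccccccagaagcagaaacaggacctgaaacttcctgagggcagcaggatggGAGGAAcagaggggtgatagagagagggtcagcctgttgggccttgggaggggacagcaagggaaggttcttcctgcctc
Fcna: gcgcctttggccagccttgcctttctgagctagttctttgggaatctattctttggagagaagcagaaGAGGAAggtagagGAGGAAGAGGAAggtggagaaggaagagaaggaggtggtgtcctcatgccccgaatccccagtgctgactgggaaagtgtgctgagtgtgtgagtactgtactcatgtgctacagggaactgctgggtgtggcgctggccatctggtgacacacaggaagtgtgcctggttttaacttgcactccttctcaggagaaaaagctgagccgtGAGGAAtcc
Mrc1: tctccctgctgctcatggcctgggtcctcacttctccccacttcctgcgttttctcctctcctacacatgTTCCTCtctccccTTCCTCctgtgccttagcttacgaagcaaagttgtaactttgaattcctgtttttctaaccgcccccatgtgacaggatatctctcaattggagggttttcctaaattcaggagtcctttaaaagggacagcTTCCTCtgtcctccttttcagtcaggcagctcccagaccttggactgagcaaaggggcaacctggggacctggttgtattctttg
Cd163: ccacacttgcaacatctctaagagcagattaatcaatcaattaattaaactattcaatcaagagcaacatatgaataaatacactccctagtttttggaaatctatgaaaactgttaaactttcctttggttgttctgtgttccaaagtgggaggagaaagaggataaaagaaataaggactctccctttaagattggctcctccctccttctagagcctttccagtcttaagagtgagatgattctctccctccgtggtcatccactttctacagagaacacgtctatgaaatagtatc
The PU.1 core occurred 1 time in the window of C1qb, 4 times in that of Fcna, 3 times in that of Mrc1 and 0 times in that of Cd163. The 8 genes have 10 windows in the table, since Selenop has 3, and shares are given per window. The PU.1 core was in 6 of the 10 windows, from 5 genes (Axl, C1qb, Fcna, Mrc1 and Selenop), and in 28.3% of all 32851 windows. The 2 Selenop windows with it overlap and hold the same match. Counted by gene instead, the core was in 5 of 8, against 31.3% of all gene symbols. The MAF letters TGCTGA were in 3 of the 10 (C1qb, Fcna and Spic), against 19.5% of all. TTGCNNAA, the letters searched for C/EBP, and CACGTG, those for the E-box of MITF and TFE3, were each in 0 of the 10, against 10.8% and 7.15% of all. The AP-1 letters TGANTCA were in 0 of the 10, against 7.81%. The core of the NF-kB motif was in 5 of the 10, against 50.8%. The interferon-stimulated response element was in 2, against 3.44%, and these are the same overlapping Selenop windows with 1 shared match. Both strands were searched for every motif, and a match describes letters and not a binding site.

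Both MDP arrays carried several defining genes of the label. Csf1r, the receptor for the macrophage growth factor, was at 7.82 in wild-type and 7.81 in Trib1-/- MDP, against 5.997 and 6.009 in the 2 GMP arrays. Irf8, a transcription factor of the monocyte and dendritic lineages, was at 7.81 and 7.77, against 5.51 and 4.81 in GMP. Flt3, a receptor of dendritic progenitors, was above the floor only in MDP, at 4.85 in wild type and 5.50 in Trib1-/-. Cx3cr1, at 5.67 in wild-type and 5.36 in Trib1-/- MDP, hardly set MDP apart. It was at 5.34 in wild-type and 5.06 in Trib1-/- GMP. Kit, the stem cell factor receptor by which MDP are usually recognised, went against the label: it was at 2.43 and 2.69, below the floor, while both GMP arrays were above it at 6.01 and 5.39. Cd34, also listed as MDP-defining, was lower in MDP (6.16 in wild type and 6.50 in Trib1-/-) than in GMP (7.52 and 7.19). Of the 10 MDP-defining genes used, wild-type MDP exceeded wild-type GMP by 2-fold or more for 3, and the reverse held for 4. Monocyte markers were high, with F13a1 at 9.34 and 9.37 and Ccr2 at 7.25 and 7.54. The name MDP is therefore used as the submitters' label. Klf1, Gata1 and Alas2 (erythroid), Pax5 (B cell), Cd3d and Cd3g (T cell), Ncr1 (NK cell), Xcr1 and Cd209a (conventional dendritic cell), Pf4 (megakaryocyte), and Cxcl12 and Cdh5 (stroma and endothelium) were below the floor on all 4 arrays. Other markers of these types were above it on all 4: Cd79a (4.62 in wild-type and 4.48 in Trib1-/- MDP), Cd3e (4.780 and 5.003), Itga2b (3.83 and 3.72), Gp9 (4.31 and 4.30), Zbtb46 (4.81 and 4.88), Col1a1 (6.73 and 6.77) and Pdgfra (4.77 and 4.11). The marker values therefore do not show that these cells were absent. Trib1 itself did not separate the genotypes. Its most expressed probe set was at 5.99 in wild-type and 5.56 in Trib1-/- MDP, and at 4.95 and 5.10 in wild-type and Trib1-/- GMP. The second was at 5.13 and 4.71 in MDP. Where these probes lie against the disrupted part is not known here, so they do not check the genotype labels.

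The 2 MDP arrays were alike over all probe sets (Pearson's r = 0.976 across probe sets, which are not independent replicates). The median difference over all genes was 0.01, with quartiles of -0.26 and 0.26. Of the 11653 genes, 178 were at least 2-fold lower in Trib1-/- MDP (1.53%) and 128 were at least 2-fold higher (1.1%). Thus 2.63% were apart in either direction. The counts of list members below are to be read beside these shares. At 4-fold, 7 were lower and 0 higher. Many of these genes were weak: of the 178, 121 had a Trib1-/- MDP value below the floor, and of the 128, 76 had a wild-type MDP value below it. With values under the floor raised to it, 80 genes were lower (0.687%) and 62 higher (0.532%). Among the 9830 genes with both MDP values above the floor, 57 were lower and 52 higher. Each MDP array was the extreme one of the 4 in many cases. That is partly fixed in advance, since the genes were chosen by the difference between the same 2 arrays. Wild-type MDP was the highest array for 114 of the 178 lower genes and the lowest for 104 of the 128 higher genes. Trib1-/- MDP was the lowest array for 137 of the lower genes and the highest for 67 of the higher genes. The 3' minus 5' signal of the control transcripts, which widens when RNA is degraded or its copying stops early, was 1.44 in wild-type and 1.66 in Trib1-/- MDP for Gapdh, and 2.01 and 1.67 for Actb. The 2 controls thus differed in opposite directions, and the part of RNA quality in the results was not tested.

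**Figure D1:**
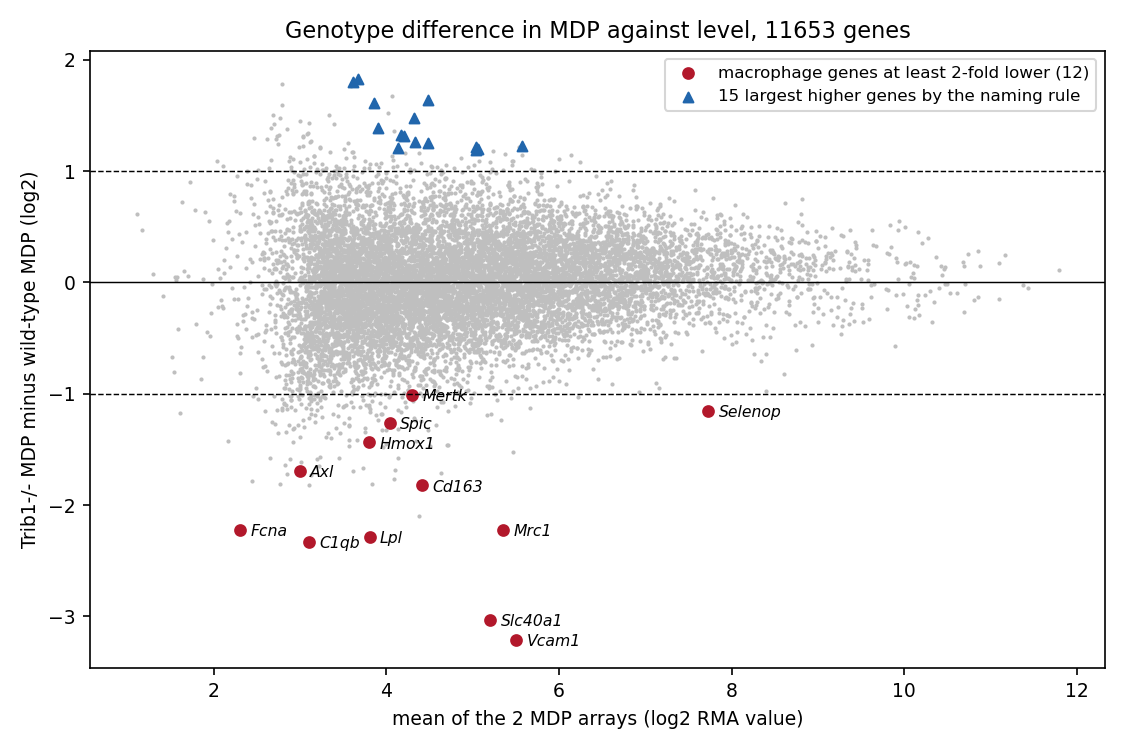
Trib1-/- minus wild-type MDP (log2, vertical axis) against the mean of both MDP arrays (log2 RMA value, horizontal axis) for 11653 genes, 1 grey point each, with dashed lines at 2-fold. Red points are the 12 macrophage genes at least 2-fold lower and blue triangles the 15 largest higher genes by the naming rule; Vcam1 (-3.21) and Slc40a1 (-3.03) lie below all other points.

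Iron-recycling macrophage genes held the 2 largest differences of the table. Vcam1 (Entrez gene 22329) encodes the adhesion molecule by which marrow and splenic macrophages hold developing red cells. In GMP it was at 5.43 (wild type) and 4.77 (Trib1-/-), and in MDP at 7.11 (wild type) and 3.90 (Trib1-/-). The wild-type MDP array was the highest and the Trib1-/- MDP array the lowest, a difference of -3.21 or 9.26-fold. Its second probe set above the floor went the same way, from 5.18 to 3.73 (-1.46), with 3.93 and 3.97 in GMP. Slc40a1 (Entrez gene 53945), which encodes the iron exporter ferroportin, was at 5.20, 4.26, 6.72 and 3.69 on the 4 arrays. It was again highest in wild-type MDP and lowest in Trib1-/- MDP, with a difference of -3.03 or 8.16-fold. Its other probe set was below the floor on all 4 arrays. Averaging both probe sets gave -1.63, so the other one does not show a difference of that size. In bulk RNA of this kind, fewer cells of a type and less RNA per cell cannot be told apart.

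Further steps of the same pathway differed in the same direction with smaller sizes. Cd163, the scavenger receptor for haemoglobin bound to haptoglobin, was at 1.93 and 1.66 in wild-type and Trib1-/- GMP, 5.32 in wild-type and 3.50 in Trib1-/- MDP. Its MDP difference was -1.82 (3.54-fold), and both GMP arrays were below the floor. Hmox1, which encodes the haem-degrading enzyme haem oxygenase 1, was at 2.43 and 2.47 in GMP, 4.52 in wild-type and 3.08 in Trib1-/- MDP. It was thus above the floor on the wild-type MDP array alone (-1.44, or -1.23 with the floor in place of lower values). Spic, the gene of the transcription factor SpiC, was at 3.10 and 3.79 in GMP, 4.67 in wild-type and 3.41 in Trib1-/- MDP (-1.26). Its second probe set differed by -0.02 and does not show that difference.

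Of the 20 listed iron-recycling genes, 17 were used, 1 (Ftl1) had no usable probe set and the others (Blvrb and Treml4) were below the floor on all 4 arrays. Among the 17, 5 were at least 2-fold lower and 0 higher, against 1.53% and 1.1% of all genes. Of the 17, 12 were below 0, against 48.5% of all genes, and the median was -0.29. Fth1, the heavy chain of the iron store ferritin, stood just outside the 2-fold size at -0.98. It was at 8.89 in wild-type and 7.92 in Trib1-/- MDP, and its other probe set differed by -0.92. In GMP it was also lower in Trib1-/-, at 8.28 against 9.01. Gclc, an enzyme of glutathione synthesis, was at 4.28 and 3.36 in wild-type and Trib1-/- MDP. Tfrc, the transferrin receptor through which most cells take up iron, differed by 0.06, as did Nr1h3, the gene of the sterol sensor LXR alpha. Members on the other side of 0 were Hfe at 0.67 and Slc48a1, a haem transporter gene, at 0.63, and both had a wild-type MDP value below the floor. The summed level of the list was 10.13 in wild-type and 9.87 in Trib1-/- GMP, and 10.61 in wild-type and 10.03 in Trib1-/- MDP. Here and below, a summed level is the log2 of the summed linear values of all listed genes with a usable probe set. It includes genes below the floor and rests mostly on the most strongly expressed members.

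Genes for the recognition and uptake of dying cells were the next group. C1qb (Entrez gene 12260), a chain of the complement protein C1q that macrophages secrete, was at 1.94 and 2.02 in wild-type and Trib1-/- GMP, 4.27 in wild-type and 1.94 in Trib1-/- MDP. The wild-type MDP array alone was above the floor, so the difference of -2.33 shrank to -0.98 with the floor in place of lower values. Fcna, the gene of the lectin ficolin A, was at 1.38, 1.33, 3.42 and 1.20 on the 4 arrays. It passed the floor by little and on 1 array (-2.22, or -0.13 with the floor in place). Axl, a receptor kinase that binds dying cells through Gas6, was at 1.72, 2.03, 3.84 and 2.15 (-1.69, or -0.55). Mertk, the related receptor kinase of mature macrophages, was above the floor on all 4 arrays, at 3.75 and 3.75 in GMP, 4.80 in wild-type and 3.79 in Trib1-/- MDP. Its difference of -1.01 was just inside the 2-fold size. Of 12 members used of the 18 listed, 4 were at least 2-fold lower and 0 higher, against 1.53% and 1.1% of all genes. The median was -0.25. That median changed sign with other settings, to 0.12 with the floor at the 75th percentile, 0.04 with probe sets averaged and 0.06 over members with both MDP values above the floor. The summed level of the list was higher in Trib1-/- than in wild-type MDP (10.42 against 10.22). With the floor in place of lower values, 1 member (Mertk) was at 2-fold. C1qa and C1qc, the other chains of C1q, were below the floor on all 4 arrays. C1qc was at 2.85 in wild-type and 1.43 in Trib1-/- MDP, C1qa at 1.55 and 1.29.

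Among genes of resident and M2-like macrophages, Mrc1 (Entrez gene 17533), the mannose receptor CD206, was at 3.83 and 3.51 in wild-type and Trib1-/- GMP, 6.46 in wild-type and 4.24 in Trib1-/- MDP. All 4 values were above the floor, the wild-type MDP array stood highest, and the difference of -2.22 (4.66-fold) did not depend on the floor. Selenop, the gene of the selenium carrier selenoprotein P that resident macrophages express strongly, was at 7.30, 7.26, 8.30 and 7.15. It was the single macrophage gene at least 2-fold lower within the highest of 10 equal groups of genes by mean MDP level (-1.15, 2.22-fold). Adgre1, which encodes the macrophage antigen F4/80, was at 4.95 and 4.15 in wild-type and Trib1-/- MDP (-0.80). Maf, a transcription factor gene of resident macrophages, was at 6.88 and 6.29, and its 4 probe sets above the floor lay between -0.59 and -0.12. Of 25 listed resident macrophage genes, 14 were used. Of these, 2 were at least 2-fold lower (1.53% of all genes), 0 higher (1.1%) and 11 below 0 (48.5%). Their median was -0.42 (-0.09 with the floor at the 75th percentile and -0.25 with probe sets averaged or shared ones left out). The summed level of the whole list was 10.17 in wild-type and 9.69 in Trib1-/- MDP. Of 10 M2-like genes used of 19 listed, 2 (Mrc1 and Cd163) were at least 2-fold lower, against 1.53% of all genes, and 0 higher. Their median was -0.21 (-0.05 with probe sets averaged), and the summed level of the list was 10.05 in wild-type and 10.02 in Trib1-/- MDP. Arg1, the arginase gene often used as an M2 marker, went the other way by 0.80, from 2.93 to 3.73. Cd5l and Clec4n, further genes of resident macrophages, were below the floor on all 4 arrays.

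Of the lipid handling genes, Lpl (Entrez gene 16956), the lipoprotein lipase, was at 2.95 and 2.50 in wild-type and Trib1-/- GMP, 4.95 in wild-type and 2.66 in Trib1-/- MDP. It was above the floor in wild-type MDP alone (-2.29 or 4.88-fold, and -1.66 with the floor in place of lower values). No other member of the list reached 2-fold. Of 19 used of 23 listed, 16 were below 0 and the median was -0.28 (-0.12 with probe sets averaged), with the cholesterol exporter gene Abca1 at -0.36, Apoe at -0.33, the fatty acid receptor gene Cd36 at 0.06 and the fatty acid binding protein gene Fabp5 at 0.25.

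**Figure D2:**
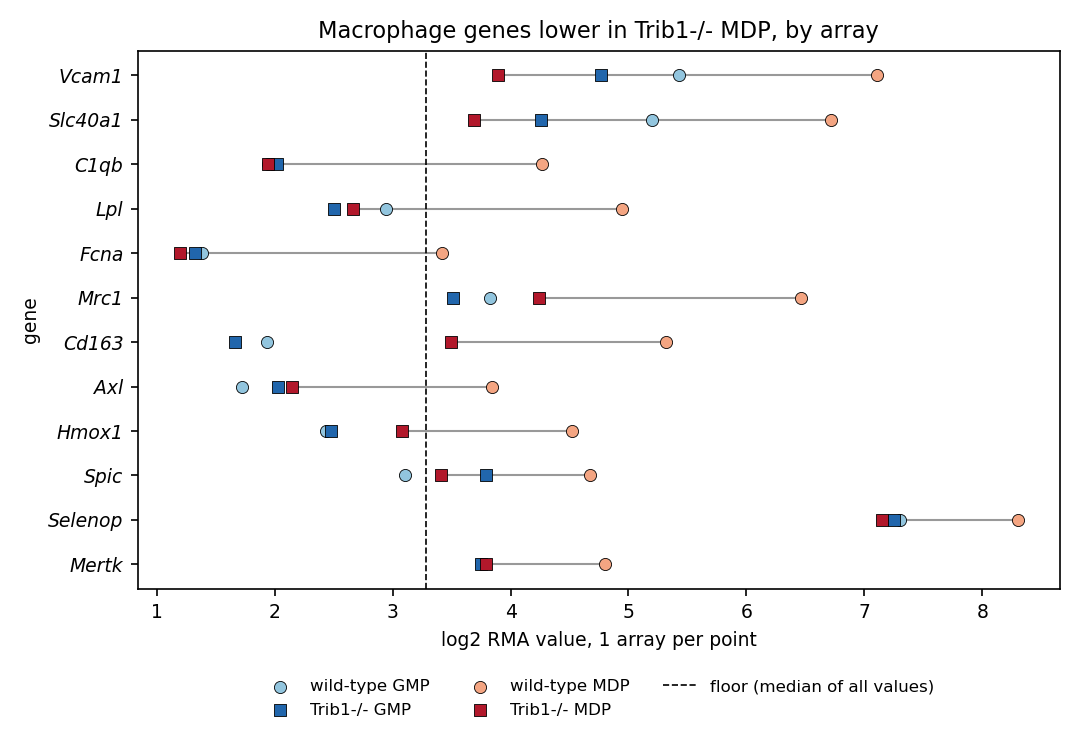
Log2 RMA value (horizontal axis) of the 12 macrophage genes at least 2-fold lower in Trib1-/- MDP, 1 point per array, with a line joining the MDP arrays and a dashed line at the floor of 3.29. The wild-type MDP point lies to the right of the other 3 for every gene, from 3.42 for Fcna to 8.30 for Selenop. Its place to the right of the Trib1-/- MDP point is fixed by the choice of lower genes.

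The 5 macrophage lists together named 98 genes. Of these, 5 had no usable probe set, 28 were below the floor on all 4 arrays and 65 were used. Of the 65, 12 were at least 2-fold lower (18.5%, against 1.53% of all genes) and 0 higher, 46 were below 0 and the median was -0.26. The lists were chosen with results of these arrays known, so these counts describe the members and are not independent evidence. The 12 made up 6.74% of the 178 lower genes of the table. They passed the floor through the wild-type MDP array alone in several cases: 5 of the 12 had a Trib1-/- MDP value below it. With the floor in place of lower values, 9 stayed at 2-fold, against 0.687% of all genes. Among the 54 with both MDP values above the floor, 7 were lower and 0 higher, against 57 and 52 of all 9830 such genes. The members nearest the floor were Siglec1, whose highest value was 3.32, and Marco at 3.35, both inside, with differences of -0.29 and -0.51. Mfge8 at 3.28 and Id3 at 3.25 were just outside, with differences of 0.59 and -0.33. Several probe sets above the floor existed for 25 of the 65. In 5 of these (Vcam1, Spic, Fth1, Maf and Lrp1) all lay below 0, in 4 (Mitf, Lyve1, Fabp5 and Cd93) all lay above 0, and 16 had both directions.

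In wild-type cells 16 of the 65 were at least 2-fold higher in MDP than in GMP, against 4.16% of all genes. The 12 lower genes were all among them, from Selenop at 1.001 to Cd163 at 3.39. That comparison shares the wild-type MDP array with the genotype comparison, so a high value there enters both. The other 4 were Adgre1 (-0.80 in Trib1-/- MDP), Cd83 (5.59 in wild-type and 5.18 in Trib1-/- MDP), the lectin gene Clec10a (3.609 and 4.102) and the transcription factor gene Klf4 (7.979 and 8.001). In GMP, whose genotype difference shares no array with that of MDP, the 12 lay between -0.94 (Slc40a1) and 0.69 (Spic), and 0 were 2-fold lower, against 3.16% of all genes. Among 12 genes, 0 cannot be told apart from that share. C1qb, Lpl, Cd163, Hmox1, Fcna and Axl were below the floor on both GMP arrays, where a lower value could hardly be seen.

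Fc gamma receptor genes were lower as a list, with 10 of the 11 used below 0, a median of -0.35, 1 at least 2-fold lower and 0 higher. The 1 was Fcgr3, which encodes CD16, part of the antigen pair CD16/32 by which GMP are commonly sorted. It was at 6.58 and 6.74 in wild-type and Trib1-/- GMP, 4.74 in wild-type and 2.92 in Trib1-/- MDP, a difference of -1.81, or -1.45 with the floor in place. Unlike the macrophage genes it was highest in GMP. Syk, the kinase below these receptors, differed by -0.57, the adaptor gene Tyrobp by -0.54 and Fcgr2b, which encodes CD32, by -0.25. Of the lysosomal protease genes, Ctsb (cathepsin B) was at 7.64 in wild-type and 6.69 in Trib1-/- MDP, with 4 probe sets above the floor between -1.24 and -0.57, and Ctsd (cathepsin D) was at 5.34 and 4.58. Over 42 lysosome genes the median was -0.10, and 2 were at least 2-fold lower: Ctse (cathepsin E) at -1.09 and Atp6v1h, a subunit of the proton pump, at -1.43. Both had a second probe set on the other side, at 0.34 for Atp6v1h and from 3.58 to 4.58 for Ctse, and 15 of the 42 were above 0. The GMP difference of Ctse was -3.55.

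Monocyte, conventional dendritic cell and MHC class II genes had medians near that of all genes with the floor used here. For the last 2 this depended on the setting. Of 25 monocyte genes, 1 was at least 2-fold lower, the protease inhibitor gene Slpi (4.96 in wild-type and 3.72 in Trib1-/- MDP, -1.24), 0 were higher, and the median was -0.01. The 10 MDP-defining genes had a median of -0.02, with Fcgr3 the single member at 2-fold. The 15 conventional dendritic cell genes had a median of 0.00 (-0.15 with no floor and -0.16 with both MDP values above it). Their single member at 2-fold was Btla, an inhibitory receptor gene, at 2.46 and 3.54 (1.08, or 0.25 with the floor in place). MHC class II genes, 8 in number, had a median of -0.06 and 0 at 2-fold. With the floor at the 75th percentile that median was -0.46. The 12 plasmacytoid dendritic cell genes had a median of -0.23 and 0 at 2-fold. The last median is close to that of the M2-like list, with Siglech, a lectin gene of these cells, at 4.70 and 4.09. The 15 genes of primary granules, which belong to the granulocyte path, had a median of -0.11 and 0 at 2-fold; Elane, the neutrophil elastase gene, was at 4.24 and 3.50. C/EBP alpha, the substrate of the Trib1 pathway, had the same RNA value in both genotypes (Cebpa at 6.89 and 6.91), and Cebpb differed by -0.30. Cebpd was at 3.19 and 2.45, both below the floor, and Cebpg at 4.31 and 5.11. Among 25 myeloid transcription factors 0 were 2-fold apart, with a median of -0.04. Spi1, which encodes PU.1, was at 4.31 and 3.87. The 10 genes of the Tribbles family and the COP1 ligase had a median of 0.24 and 0 at 2-fold.

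Markers of other cell types were checked because a sorted fraction can hold them. Of all genes, 1.53% were at least 2-fold lower in Trib1-/- MDP, or 0.687% with the floor in place of lower values. Erythroid genes included 2 of 8 at least 2-fold lower: Car2, a carbonic anhydrase gene, at 4.94 and 3.25 in wild-type and Trib1-/- MDP, and Tal1, a blood transcription factor gene, at 5.79 and 4.62. Klf1, Gata1 and Alas2, which define red cell precursors, were below the floor on all 4 arrays, and the summed erythroid level was 9.76 in both MDP arrays, against 10.06 in wild-type and 9.80 in Trib1-/- GMP. Of 14 stromal and endothelial genes, 1 was lower, the matrix gene Sparc at 4.25 and 3.14, and the summed level was 9.19 and 9.20. Stem and progenitor genes had 3 of 19 at least 2-fold lower (Cd27, Prom1 and Slamf1), of which 1, Slamf1, stayed so with the floor in place, and a median of -0.16. B cell genes, 9 in number, had a median of -0.29 and 0 at 2-fold, and a summed level of 8.51 in wild-type and 8.26 in Trib1-/- MDP. The part of any of these in the macrophage result was not tested.

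**Figure D3:**
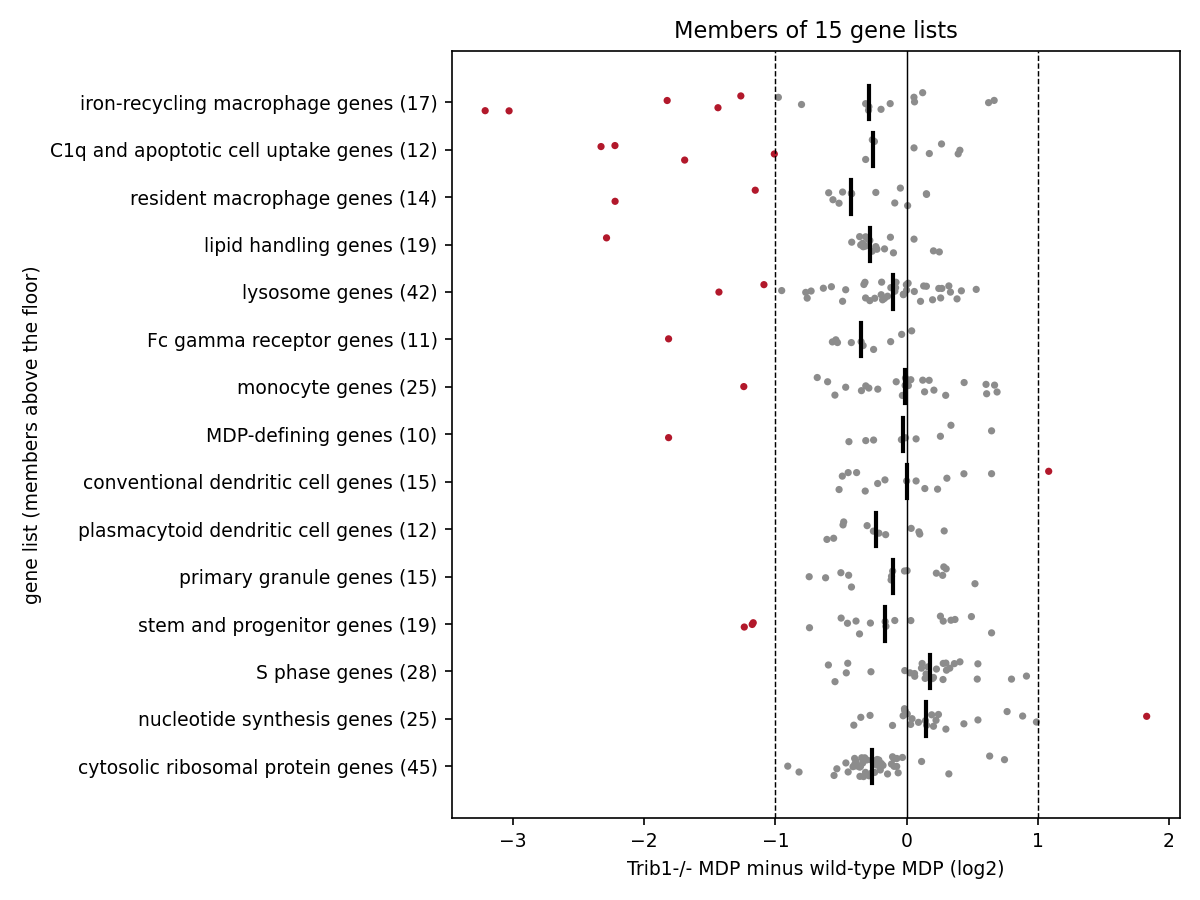
Trib1-/- minus wild-type MDP (log2, horizontal axis) of every used member of 15 gene lists (rows, number of members in brackets), 1 point per gene, with a black bar at the list median and dashed lines at 2-fold. Red points are members at least 2-fold apart in either direction; most of those to the left are in the upper 4 rows, while the monocyte, dendritic cell and granule rows centre between -0.23 and 0.00.

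Lists of basic cell functions differed by small amounts. Cytosolic ribosomal protein genes lay below 0 in 41 of 45 cases, with a median of -0.27 (-0.10 with shared probe sets left out) and 0 at 2-fold. Respiratory chain and ATP synthase genes had a median of -0.14 over 85 members, with 2 lower and 0 higher. Ndufs7, a subunit of complex I, led them (4.97 in wild-type and 3.21 in Trib1-/- MDP, with a second probe set at -0.54), and its GMP difference was -1.27. Mitochondrial ribosomal protein genes had 4 of 72 lower, of which 1 (Mrps24, with a second probe set at 0.28) stayed so with the floor in place, and a median of -0.10. Proteasome genes had 3 of 47 lower and a median of -0.02; the largest was Psmg2, an assembly chaperone gene, at 5.24 and 3.77. S phase genes lay above 0 in 22 of 28 cases (median 0.18), none at 2-fold. Pole, the gene of the leading-strand DNA polymerase, was at 4.31 in wild-type and 5.22 in Trib1-/- MDP, and the uracil repair gene Ung at 4.39 and 5.19. The helicase genes Mcm2 and Mcm5 each differed by 0.54, and each had a second probe set above 0 (0.40 and 0.45). Mitosis genes had a median of -0.07 over 27 members, 0 at 2-fold.

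Nucleotide synthesis genes lay above 0 in 17 of 25 cases (median 0.14), with 1 at least 2-fold higher. Cad, the enzyme of the first steps of pyrimidine synthesis, was at 4.83 and 4.57 in wild-type and Trib1-/- GMP, 2.76 in wild-type and 4.59 in Trib1-/- MDP. The wild-type MDP array was the low one and the other 3 lay together (1.83, or 1.30 with the floor in place), and a second probe set differed by 0.999. Next were the purine synthesis genes Adsl (3.77 and 4.76) and Pfas (4.71 and 5.59), both also lower in wild-type MDP than in wild-type GMP. Unfolded protein response genes lay above 0 in 19 of 27 cases, with a median of 0.16 and 1 at 2-fold (Wfs1, 1.59, or 0.30 with the floor in place). Interferon response genes had a median of 0.20 over 28 members, with Samd9l higher (2.70 and 4.47) and Cmpk2 at -1.05. NF-kB genes had a median of -0.03 and 1 higher, Icam1, a ligand of leukocyte integrins, at 3.40 and 4.47. Of 55 lists with at least 5 members used, 26 had no member 2-fold apart. A median of at least 0.3 in size was found in 3: resident macrophage (-0.42), Fc gamma receptor (-0.35) and histone genes (-0.31). At least 20 percent of members were 2-fold lower in 4: the iron-recycling, C1q and uptake, M2-like macrophage and erythroid lists.

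The largest lower genes outside these lists were of mixed function. Lgi1, which encodes a secreted protein best known from neurons, was at 4.40 and 4.75 in wild-type and Trib1-/- GMP, 5.43 in wild-type and 3.33 in Trib1-/- MDP (-2.09, 4.27-fold). Llgl2, a cell polarity gene, differed by -1.57, the membrane protein gene Emp1 by -1.52 (6.23 and 4.71), the potassium channel gene Kcna4 by -1.46 and Fkbp8, a mitochondrial chaperone gene, by -1.32. Eps8, an actin regulator, was at 4.61 and 3.28, and its second probe set differed by -1.08. Vcam1 was the single gene with more than 1 probe set at least 2-fold lower after raising values to the floor. Of the 178 lower genes, 33 had several probe sets above the floor and in 17 of these all went in 1 direction.

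Among the higher genes the wild-type MDP array was usually the low one. This is partly fixed in advance, since they were chosen for a wild-type value at least 2-fold below that of Trib1-/- MDP. Rhot1, the gene of the mitochondrial transport protein Miro1, was at 5.36 and 5.15 in wild-type and Trib1-/- GMP, 3.66 in wild-type and 5.30 in Trib1-/- MDP (1.64). Its other probe sets differed by only 0.21 and 0.26. Tbl2, an endoplasmic reticulum protein gene, was at 5.68, 4.96, 3.51 and 4.83 (1.32), while its other probe sets lay at 0.09 or a little above. Frmd4a, a scaffold protein gene, was at 6.51, 6.17, 4.95 and 6.18 (1.23), and was above the floor on all 4 arrays. Zfhx4, a large transcription factor gene, differed by 1.47 and had its highest value in Trib1-/- MDP (3.72, 4.03, 3.58 and 5.05). Il10ra, the receptor gene for the anti-inflammatory cytokine IL-10, was at 3.86 in wild-type and 5.11 in Trib1-/- MDP (1.25); its 2 probe sets below the floor went the other way. The other large ones were Pcp2 (1.38 with the floor in place), Igf2os (1.32), the tRNA methyltransferase gene Trmt5 (1.31), the calcium-binding protein gene Rcn2 (1.27), Tmem201 (1.23), Stard6 (1.22), Eml3 (1.21), the sulfatase activator gene Sumf1 (1.20) and Bphl (1.19). Cpt1a, the enzyme that admits fatty acids to mitochondria, was the single gene with more than 1 probe set at least 2-fold higher on those terms (1.48 and 1.46), and both are of a kind that can bind several transcripts. Its most expressed probe set differed by 0.51. Of the 128 higher genes, 30 had several probe sets above the floor and in 16 of these all went in 1 direction.

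**Figure D4:**
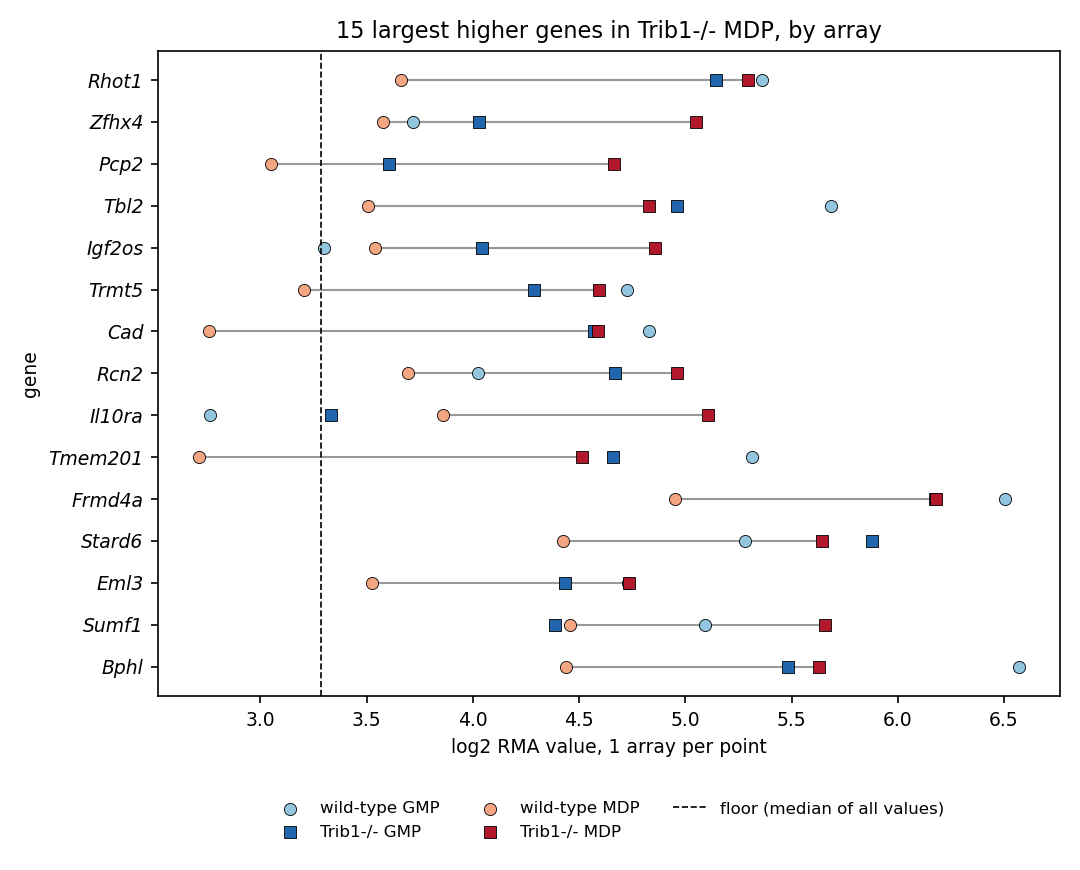
Log2 RMA value (horizontal axis) of the 15 largest higher genes by the naming rule, 1 point per array, with a line joining the MDP arrays and a dashed line at the floor of 3.29. The wild-type MDP point lies at the left end of each line, which the choice of higher genes fixes. For Cad and Rhot1 the other 3 arrays lie close together on the right, while for Zfhx4 and Il10ra the Trib1-/- MDP point stands alone on the right.

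The size of a difference has to be read against the level of the gene. The SD of the difference over genes was 0.61 in the lowest of 10 equal groups by mean MDP level and 0.27 in the highest. The lowest group (1166 genes) held 73 of the 178 lower and 47 of the 128 higher genes. The 3 highest groups (3496 genes) held 3 lower and 6 higher. Those lower were Selenop, Apold1 (-1.13), an endothelial stress gene, and Fxyd5 (-1.03), a regulator of the sodium pump, whose GMP difference was -1.11. Those higher were Zfp367 (1.003), Vopp1 (1.01), Smarcad1 (1.01), Nampt (1.08), Gtdc1 (1.11) and Plxnc1 (1.14). Nampt, the enzyme that recycles nicotinamide to NAD, was at 5.70 in wild-type and 6.78 in Trib1-/- MDP, and its second probe set differed by 0.91. Plxnc1, a semaphorin receptor gene, had a probe set at -1.503 beside the one at 1.14. The SD between probe sets of the same gene was 0.39, pooled over 4922 genes with several. The differences of Vcam1, Slc40a1 and Mrc1 were larger than that value, and that of Mertk was nearer to it. Vcam1, Slc40a1 and Mrc1 are among the extremes of the same table, so the comparison is no check on them. The 2 probe sets of Vcam1 above the floor lay further apart than the pooled value, at -3.21 and -1.46. Averaging probe sets gave -1.63 for Slc40a1. Scatter between probe sets is between probes on the same pair of arrays and holds nothing of the spread between animals or sorts.

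**Figure D5:**
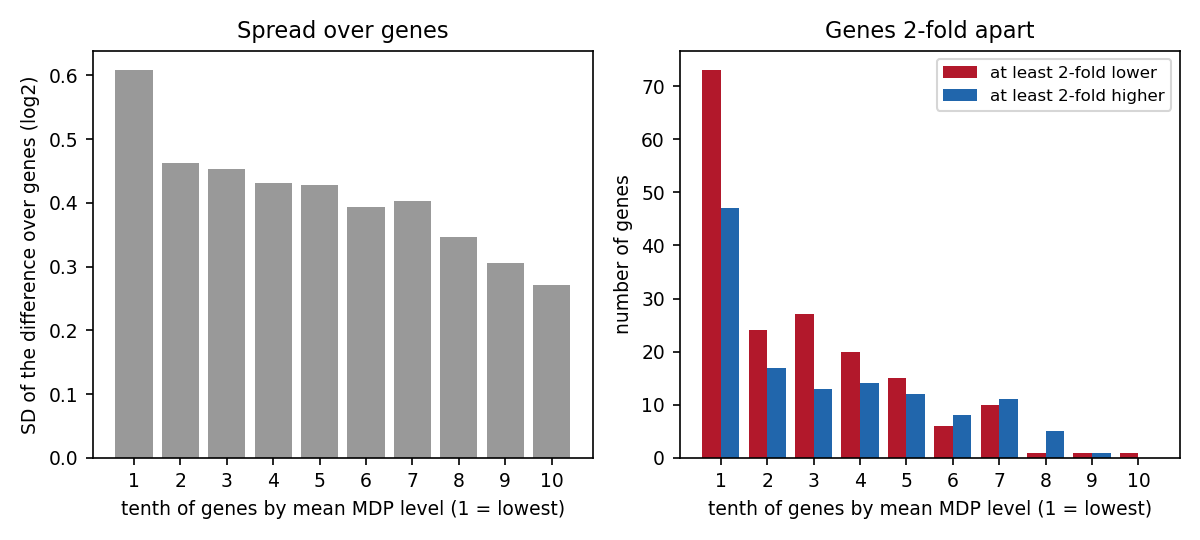
Left, SD over genes of the Trib1-/- minus wild-type MDP difference (log2, bars from 0) in 10 equal groups of genes by mean MDP level, 1 being the lowest. Right, number of genes at least 2-fold lower (red) and higher (blue) in each group; the lowest group holds 73 lower and 47 higher genes.

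In GMP, of the same 11653 genes, 3.16% were at least 2-fold lower in Trib1-/- and 0.481% higher. Of the 178 genes lower in Trib1-/- MDP, 11 were also at least 2-fold lower in Trib1-/- GMP and 1 was higher there. Of the 128 higher in MDP, 1 was also higher in GMP and 7 were lower there. The lower macrophage genes were not among the 11. With so small an overlap of all lower genes, that absence is not a result about the macrophage genes.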

How the data were processed

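RNA of sorted wild-type and Trib1-/- MDP and GMP was measured on 1 Affymetrix array each. RNA was taken up in Trizol and amplified and labelled by NuGEN Ovation, per the labels' protocols. The authors deposited values made with RMA, per the submitters' processing notes, and these are taken as log2 values from their range (0.14 to 14.5). RMA makes the distributions of arrays alike, so a difference in total RNA per cell cannot be seen. The sources used here do not give its version. Arrays give no read depth; their number limits the precision.

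Of 45101 probe sets, 64 were controls, 34945 had 1 gene symbol in the platform annotation, 932 several and 9160 none, and those with 1 symbol were used. Each gene took its probe set with the highest mean, and the floor was the median of all values. No test could be fitted to 1 array per group, and none was run. The members and all 57 gene lists were chosen with earlier results of these data known. The genes named are Trib1, the 5 marker genes (Vcam1, Slc40a1, Mrc1, C1qb and Lpl), the MDP-defining genes and the 15 largest in each direction after lower values were raised to the floor, given that their probe sets above the floor went in 1 direction and that the symbol is not that of a predicted gene. Genes with at least 2 probe sets each 2-fold apart and list members at least 2-fold apart (otherwise up to 4 of the largest) were named too. Cd83, Clec10a, Klf4, Siglec1, Marco and the genes of the 3 highest level groups were chosen after their values were seen, as were some list members given beside these. Python 3.11.15, pandas 2.3.3, R 4.3.3 and limma 3.58.1 (cyclic loess, 3 iterations) were used, and the calculation was tested on simulated data. The settings varied were the floor (none, the 75th percentile, or values raised to it), the choice of probe set (the mean over a gene, or without those binding several transcripts), cyclic loess, centred arrays, adding 32 to linear values, and size rules of 1.5-fold and 4-fold.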

Additional observations from a re-analysis of the deposited data

Results flagged for a closer look

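Genes at least 2-fold apart between genotypes in MDP and at least 2-fold the other way in GMP numbered 8. Of the 128 genes higher in MDP, 7 were lower in GMP, where 3.16% of all genes were lower. Of the 178 lower in MDP, 1 was higher in GMP, where 0.481% of all genes were higher. Counts this small are not read as a result about these genes. With 1 array per group the difference between the progenitors was not tested. The MDP and GMP differences were 1.01 and -2.05 for Aaas, a nuclear pore gene. They were 1.03 and -1.40 for Adal, an adenosine deaminase-like gene. For Atpsckmt, a mitochondrial methyltransferase gene, they were 1.502 and -1.43. Bphl was at 1.19 and -1.09 and Gdpd3, a lysophospholipase gene, at 1.78 and -1.22. The histone gene H2aj was at 1.15 and -1.04, and the phosphatase-like gene Hdhd2 at 1.29 and -1.001. Slc12a3, a sodium chloride transporter gene, went the other way in both, at -1.07 and 1.95. With the floor in place of lower values, the MDP differences of Aaas, Adal and Atpsckmt were 0.83, 0.74 and 0.80. Those of Gdpd3 and Hdhd2 were 0.40 and 0, all below the 2-fold size. The MDP differences of Bphl, H2aj and Slc12a3 did not change.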

How the results depend on the processing

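No gene at least 2-fold apart among those picked by the naming rule changed sign under any alternative run. That outcome was partly fixed: changing the floor, raising values to it or adding 32 cannot reverse a gene's sign. The largest genes were also chosen for probe sets in 1 direction. Genes named in other ways, such as Plxnc1 with probe sets in both directions, were not run. Weaker values did change: 22 of 57 list medians (all 0.31 or smaller in size) and 9 genes of the naming rule (0.63 or smaller) changed sign under at least 1. The C1q and uptake median, -0.25, became 0.12 with the floor at the 75th percentile, 0.04 with probe sets averaged and 0.06 with both MDP values above the floor (an alternative chosen after seeing the data). The NK cell median went from 0.23 to -0.19 in that last setting and the eosinophil median from 0.31 to -0.19 with no floor. The resident macrophage median ranged from -0.42 to -0.09, the iron-recycling one from -0.56 to -0.18, the lipid one from -0.31 to -0.11, and the M2-like one from -0.29 to -0.05. The nucleotide synthesis median was 0.06 under cyclic loess and the interferon median to 0.05 with both MDP values above the floor. The count of lower genes (178) became 63 with the floor at the 75th percentile, 80 with values raised to the floor, 110 with probe sets averaged per gene, 3 with 32 added, 887 at 1.5-fold and 7 at 4-fold; the count of higher genes (128) became 54, 62, 74, 0, 834 and 0. With both MDP values above the floor they were 57 and 52. Under no floor, shared probe sets left out, cyclic loess and centred arrays both stayed within 1.5 times. The lower share of all 2-fold genes was 58.2%, from 52.3% to 61.0% elsewhere except 100% of 3 genes with 32 added, and the median of all genes moved by under 0.1. With the mean of probe sets Vcam1 was at -1.83, Slc40a1 at -1.63 and Lpl at -1.54. With 32 added Vcam1 was at -1.86, Slc40a1 at -1.61, Mrc1 at -1.24, Lpl at -0.71 and C1qb at -0.52. Raised to the floor Lpl was at -1.66 and C1qb at -0.98. C1qb gave no value with the 75th percentile floor, the probe set mean, shared probe sets left out or both MDP values above the floor. Of 178 named genes, 97 moved by more than the SD between probe sets with 32 added and 43 when raised to the floor. No paired analysis was possible because each group holds 1 array, and no replicate could be left out.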

Other observations

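Probe sets without a gene name were not used above. Of 5089 such probe sets above the floor, 36 were at least 2-fold lower in Trib1-/- MDP and 35 at least 2-fold higher with values raised to the floor, from -1.75 to 1.56. Sex transcripts did not separate the arrays: Xist was at 9.93 in wild-type and 10.1 in Trib1-/- MDP, and 9.60 and 10.1 in GMP, while Eif2s3y, Kdm5d and Uty were below the floor on all 4 arrays.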
